A study of Homo sapiens with 6 samples.

Results

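The collagen chain genes are the protein-coding genes whose symbol is COL, a type number, A and a chain number, and 42 of the 27776 genes of the count table met that rule. They were followed in MDA-MB-231, an established human breast cancer line, in 3 libraries exposed to khellin and 3 control libraries. Khellin, a natural furanochromone, occurs in Ammi visnaga fruit. The titles name no dose, no exposure time and no vehicle, and the design text of the series calls the comparison group docetaxel-resistant where the titles call it control, so whether the control cells, or both groups, were resistant cells is not settled by the labels. The groups have 1 cell line in common. Apart from the unsettled point of docetaxel resistance, they differ by no allele or further agent that the labels name. Libraries held 28631578 to 30291087 counts with khellin and 29662956 to 30956610 in control, and these ranges overlapped (two-sided exact permutation test, p = 0.3 with 3 libraries a group, a design that cannot go below 0.1). The titles call the libraries biological replicates but say nothing of separate cultures, so p-values measure the spread between these samples only.

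Collagens are trimers of alpha chains wound into a triple helix, and each chain has its own gene. Fibrillar chains build the banded fibrils of connective tissue, type IV chains the network of basement membranes, type VI chains beaded filaments, and type VII chains the anchoring fibrils that tie epithelial basement membranes to the tissue below. Transmembrane collagens sit in the cell membrane and can be shed from it, and the FACIT group, collagens with an interrupted helix, decorates fibrils made by others. In tumours most of this matrix is laid down by fibroblasts, while carcinoma cells make a smaller and variable set of their own.

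The label of the line was compared with its marker genes. VIM, CD44, AXL, CAV1, MSN and LGALS1, known to be high in mesenchymal-like breast lines, summed to 5190 to 5290 CPM with khellin and 5460 to 5600 CPM in control, where CPM are counts scaled by library total and TMM factor. These genes moved both ways. CAV1 rose (log2 fold change 0.32, edgeR adjusted p = 0.0032). CD44 and MSN fell (-0.29 and -0.32, edgeR adjusted p = 0.0010 and 0.00080). VIM (0.12), AXL (-0.06) and LGALS1 (0.13) did not pass (edgeR adjusted p = 0.072, 0.35 and 0.52). Of 5 genes known to be low or absent in such lines, CDH1, the epithelial cadherin, had 0 to 2 reads a library, EPCAM 97 to 143 and ERBB3 146 to 284. The 5 summed to 13.3 to 14.1 CPM with khellin and 10.2 to 10.9 CPM in control without overlap, and ERBB3, a receptor kinase gene, rose (log2 fold change 0.73, SE 0.0944, edgeR adjusted p = 0.00081). Of 6 fibroblast markers, 5 had counts in the table, and they summed to 2.45 to 3.13 CPM with khellin and 2.26 to 3.23 CPM in control. LUM, THY1 and PDGFRA, which define fibroblasts, had at most 7 reads in a library, and ACTA2, with 46 to 69 reads, stood at -0.27 (SE 0.187, edgeR adjusted p = 0.35). PDGFRB, also a fibroblast marker, had 5 to 38 reads a library and rose with khellin (log2 fold change 1.35, SE 0.371, edgeR adjusted p = 0.032). Of 5 endothelial markers PECAM1 rose (0.62, SE 0.158, edgeR adjusted p = 0.023) while CDH5, which defines endothelium, had at most 1 read, and the list summed to 7.26 to 7.77 CPM with khellin and 6.22 to 7.43 CPM in control. KDR, the most abundant of these 5, had 132 to 165 reads and stood at -0.0036 (SE 0.111, edgeR adjusted p = 0.99). Of 5 blood markers 2 were in the table, CD14, which rose (0.57, SE 0.166, edgeR adjusted p = 0.040), and PTPRC, with at most 6 reads, and their sum of 2.28 to 3.23 CPM with khellin did not overlap the 1.56 to 2.02 CPM in control. Of 6 keratinocyte markers 3 were in the table, summing to 18.2 to 19.5 CPM with khellin and 19.6 to 28.7 CPM in control. Nearly all of that sum was KRT10, with 552 to 862 reads a library (log2 fold change -0.31, SE 0.129, edgeR adjusted p = 0.13). KRT14 and TP63 had at most 4 and 7 reads in a library. The part of these markers in the collagen results was not tested. RNA pooled over a culture cannot tell more expressing cells from more RNA per cell.

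The collagen chains divided sharply by level. A mean of at least 1 CPM was reached by 21 of the 42, and another 3 had enough reads to enter the test, so 24 were tested and 18 were not. The 18 had between 1 and 42 reads over all 6 libraries together, and 13 of them never passed 3 reads in a library, the floor below which a level is not read, 0.099 to 0.105 CPM with khellin and 0.0969 to 0.101 CPM in control. Among these were COL1A2, COL2A1 and COL3A1, the classic fibril chains of fibroblasts and cartilage. COL1A2 had 2, 1 and 0 reads with khellin and 0, 0 and 1 in control. COL5A3 and COL9A1 had no row in the count table that met the rule, so they were not analysed here.

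Collagen transcripts as a whole were more abundant with khellin. All 42 genes together took 0.105%, 0.107% and 0.105% of counts in the khellin libraries and 0.0830%, 0.0866% and 0.0860% in the control libraries, and the groups did not overlap. In TMM-scaled terms the sum was 1039, 1057 and 1039 CPM with khellin against 844, 872.6 and 880.9 CPM in control. A gain of 163 CPM over the 7 chains that gained most, out of a net 179 CPM, came from COL5A1, COL4A2, COL13A1, COL7A1, COL8A1, COL6A1 and COL4A1, with 33.0, 32.9, 25.7, 24.4, 20.7, 15.3 and 11.4 CPM. Among the 42, COL17A1 had the largest loss.

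Of the 24 tested chains, 11 rose with khellin, 2 fell and 11 stayed uncalled, a call being an adjusted p under 0.05 in the edgeR quasi-likelihood fit. Over all 15865 tested genes 19.4% were called, 10.6% higher and 8.82% lower, against 54.2% of the tested collagen chains. With khellin 20 of the 24 had a positive log2 fold change and 4 a negative one, where 50.4% of all tested genes had a positive one. The median of the 24 was 0.25 where that of all tested genes was 0.00. With a correction for exon length and GC content these medians were 0.156 and -0.027. The groups did not overlap for 15 of the 24, where the same held for 38.2% of all tested genes. A change of at least 1.5-fold was called for 6 higher and 2 lower chains, where 4.27% of all tested genes reached it, 2.91% higher and 1.36% lower. Scaling by library size alone left 11 higher and 2 lower collagen chains although it shifted the calls over all genes to 2208 higher and 986 lower, against 1681 and 1399 with TMM. These counts describe chains chosen with earlier results known and are no test of the family.

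**Figure D1:**
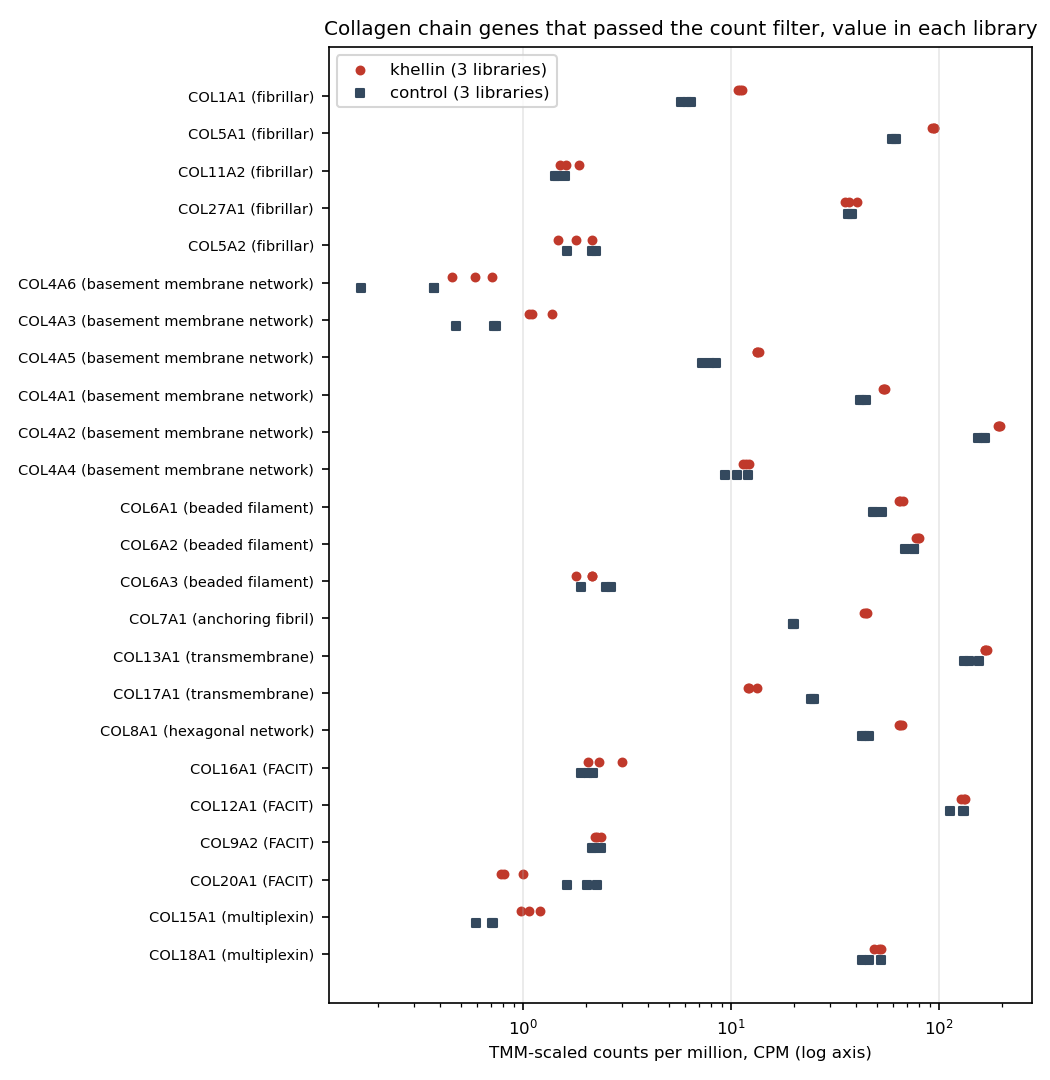
Each of the 24 tested collagen chain genes is a row and each point 1 library, with TMM-scaled CPM on a log axis, khellin libraries as circles above control libraries as squares. COL7A1 and COL17A1 stand apart from their control values in opposite directions, and COL27A1 and COL9A2 overlap.

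By fold change, the largest rise among the tested chains was that of the anchoring fibril gene. COL7A1 (ENSG00000114270, minus strand of chromosome 3, 48564073 to 48595329 on GRCh38) encodes the only chain of type VII collagen, the protein missing in dystrophic epidermolysis bullosa. It had 44.9, 43.5 and 44.4 CPM with khellin, against 19.8, 20.1 and 19.7 CPM in control. Every khellin library lay more than 2-fold above every control library, and the log2 fold change was 1.16 (SE 0.0557, edgeR adjusted p = 4.6e-06), a 2.23-fold rise. Over the 15 alternative fits the value stayed between 1.05 and 1.20.

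COL17A1 went the other way. It encodes the transmembrane collagen of hemidesmosomes, the junctions that anchor epithelial cells to laminin-332 above the anchoring fibrils, and lies on the minus strand of chromosome 10 from 104031286 to 104085880. Khellin libraries had 12.2, 13.3 and 12.1 CPM and control libraries 24.1, 24.9 and 24.7 CPM. The groups were far apart, at 1.96-fold lower with khellin, with a log2 fold change of -0.97 (SE 0.0671, edgeR adjusted p = 2.3e-05). Levels of different genes were set side by side per kilobase of the joined exons of all annotated transcripts. That length can exceed the RNA expressed, by a factor that may differ between genes, so orders on this scale are approximate. Here COL7A1 averaged 3.995 CPM and COL17A1 1.78 CPM in khellin libraries, where the control means were 1.79 and 3.48 CPM. The order of this pair was therefore reversed between the groups, COL7A1 ranking 9 and COL17A1 ranking 12 of the 42 with khellin, and 12 and 9 in control. Transmembrane type XIII collagen did not share the fall. COL13A1, which encodes a chain found at cell-matrix contacts, had 166.3, 169.3 and 166 CPM with khellin and 130.8, 138.9 and 155 CPM in control. Its log2 fold change was 0.24 (SE 0.0611, edgeR adjusted p = 0.023), but leaving out control replicate 2 ended the call (adjusted p = 0.0961), as did leaving out khellin replicate 1 (0.0766), 2 (0.0776) or 3 (0.0828). COL23A1 and COL25A1, the other transmembrane chains, had at most 2 reads in a library.

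The promoters of these 2 genes are shown because they carried the largest opposite changes among the well expressed chains. Both are RefSeq windows on GRCh38.p14, from 250 bases before to 50 after the start site, read on the strand of the gene. Capitals mark letters that match any of 4 motifs searched on both strands, TGANTCA (AP-1), GGGCGG (GC box), CCAAT and TATAAA, which do not overlap each other here. The COL7A1 window is chr3:48595280-48595579 (minus strand) and the COL17A1 window chr10:104085831-104086130 (minus strand).
COL7A1: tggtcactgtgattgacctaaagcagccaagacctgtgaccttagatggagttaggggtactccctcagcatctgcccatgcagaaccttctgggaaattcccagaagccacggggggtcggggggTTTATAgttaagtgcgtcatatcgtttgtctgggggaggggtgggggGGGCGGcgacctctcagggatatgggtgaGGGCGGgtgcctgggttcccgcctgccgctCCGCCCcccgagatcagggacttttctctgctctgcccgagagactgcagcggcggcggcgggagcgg
COL17A1: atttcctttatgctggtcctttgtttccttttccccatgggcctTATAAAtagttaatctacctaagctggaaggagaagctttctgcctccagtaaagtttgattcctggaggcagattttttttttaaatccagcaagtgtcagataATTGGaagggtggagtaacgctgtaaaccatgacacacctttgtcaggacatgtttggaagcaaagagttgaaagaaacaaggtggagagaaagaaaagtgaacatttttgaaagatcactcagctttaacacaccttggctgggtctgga
The COL7A1 window holds 3 GC boxes and a TATAAA on the reverse strand, 124 bases before the start. In the COL17A1 window the only matches were a TATAAA and a reversed CCAAT, 206 and 101 bases before the start. TGANTCA was found in neither, and in 7.71% of all 35116 promoter windows of the table. GC boxes stood in 45.0% of all windows, CCAAT in 34.6% and TATAAA in 11.5%. Among the 30 collagen chains with a window, 20 had a GC box, 10 a CCAAT, 7 a TATAAA and 1, COL10A1, a TGANTCA. These count genes with a match in any of their windows, of which some genes have several. The shares over all windows are per window, so the units differ.

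Fibrillar chains split between 2 that rose and 3 that did not pass, where 10.6% of all tested genes were called higher. COL1A1 (minus strand of chromosome 17, 50184101 to 50201632), whose product forms the bulk of type I collagen together with that of COL1A2, had 10.7, 11.0 and 11.3 CPM with khellin against 5.74, 6.12 and 6.38 CPM in control. The groups were well apart (log2 fold change 0.86, SE 0.0793, edgeR adjusted p = 0.00013). Its usual partner COL1A2 stayed at or under 2 reads, so no ratio of the chains was formed. COL5A1, a chain of the type V collagen that regulates the diameter of type I fibrils, was the highest fibrillar gene per kilobase in both groups. It had 94.1, 94.5 and 92.4 CPM with khellin and 59.0, 62.0 and 61.1 CPM in control. That was a log2 fold change of 0.63 (SE 0.0464, edgeR adjusted p = 3.4e-05). COL5A2, which encodes its partner chain, had 1.79, 2.15 and 1.46 CPM with khellin and 1.62, 2.14 and 2.25 CPM in control, and these values overlapped (log2 fold change -0.15, SE 0.186, edgeR adjusted p = 0.61). The count ratio of COL5A1 to COL5A2 was thus 53.2 ± 9.61 with khellin and 30.8 ± 4.88 in control (SD, n = 3 each). COL27A1, a fibrillar chain of cartilage, had 35.1, 40.0 and 36.8 CPM with khellin and 36.3, 37.5 and 37.9 CPM in control, a log2 fold change of 0.00 (SE 0.0651). COL11A2, also known from cartilage, had 1.86, 1.61 and 1.497 CPM with khellin and 1.59, 1.43 and 1.46 CPM in control, with overlap (log2 fold change 0.15, SE 0.151, edgeR adjusted p = 0.57).

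**Figure D2:**
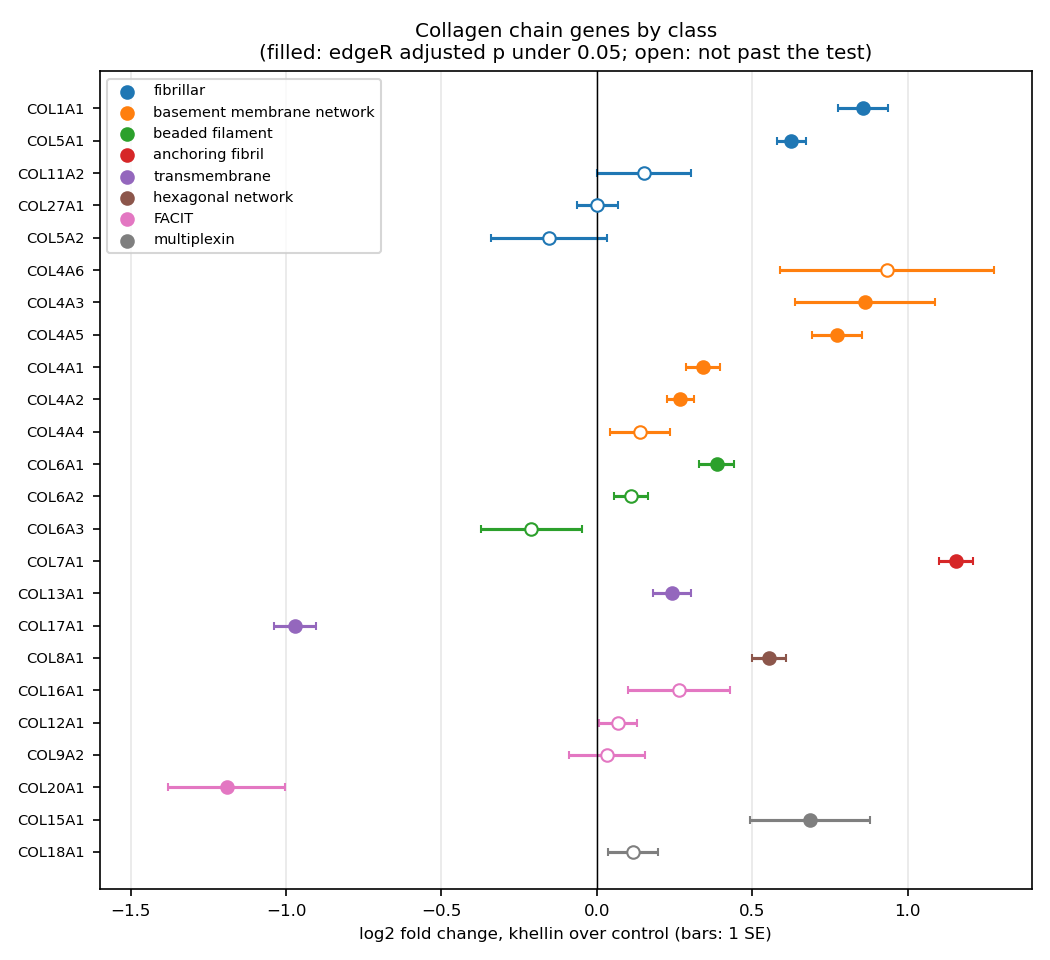
Log2 fold changes, khellin over control, with bars of 1 SE for the 24 tested collagen chain genes, ordered and coloured by class. Filled points passed edgeR's quasi-likelihood test at an adjusted p under 0.05, and of these only COL17A1 and COL20A1 lie left of 0.

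All 6 type IV genes, the basement membrane chains, had a positive log2 fold change, and 4 of them passed the test. Of all tested genes 50.4% had a positive value and 10.6% were called higher. They sit in the genome as 3 head-to-head pairs. COL4A1 and COL4A2, whose chains assemble with each other in nearly all basement membranes, rose together. COL4A1 had 54.2, 53.5 and 54.9 CPM with khellin and 41.7, 44.3 and 42.3 CPM in control (log2 fold change 0.34, SE 0.0533, edgeR adjusted p = 0.0022). COL4A2 had 192, 195.9 and 193 CPM with khellin and 153.7, 162.6 and 165.9 CPM in control (log2 fold change 0.27, SE 0.0444, edgeR adjusted p = 0.0030). The correction for exon length and GC content, which lowered the median of the tested chains, brought COL4A1 to 0.24 and COL4A2 to 0.14 (edgeR adjusted p = 0.0010 and 0.0108). The count ratio of COL4A1 to COL4A2 was 0.282, 0.273 and 0.285 with khellin and 0.272, 0.273 and 0.255 in control. The lowest khellin and the highest control ratio were equal as rounded, and before rounding the groups just failed to overlap.

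The second pair, COL4A3 and COL4A4, belongs with COL4A5 to the network of the kidney glomerulus that fails in Alport syndrome. COL4A3 was scarce, with 1.07, 1.38 and 1.11 CPM with khellin and 0.743, 0.476 and 0.728 CPM in control (log2 fold change 0.86, SE 0.225, edgeR adjusted p = 0.025). This call was lost in DESeq2 (adjusted p = 0.0872), without control replicate 2 (edgeR adjusted p = 0.0883) and without khellin replicate 1 (0.0554), 2 (0.0928) or 3 (0.0663). COL4A3 shares 120 exon bases with a gene on the opposite strand, listed in the table as MFF-DT, which had 39, 26 and 43 reads with khellin and 35, 34 and 32 in control. Whether reads were counted by strand is not stated, so those in the shared bases cannot be told apart. COL4A4 had 11.4, 11.8 and 12.1 CPM with khellin and 12.1, 10.7 and 9.36 CPM in control, and the groups overlapped (log2 fold change 0.14, SE 0.0969, edgeR adjusted p = 0.36).

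COL4A5 and COL4A6 form the pair on chromosome X. COL4A5 had 13.34, 13.35 and 13.67 CPM with khellin against 8.48, 7.24 and 7.91 CPM in control, a log2 fold change of 0.77 (SE 0.0799, edgeR adjusted p = 0.00024). COL4A6, at 0.586, 0.706 and 0.456 CPM with khellin and 0.372, 0.374 and 0.165 CPM in control, had a similar log2 fold change of 0.93 with a far wider error (SE 0.344) and did not pass (edgeR adjusted p = 0.089). The khellin values lay above every control value for both genes.

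**Figure D3:**
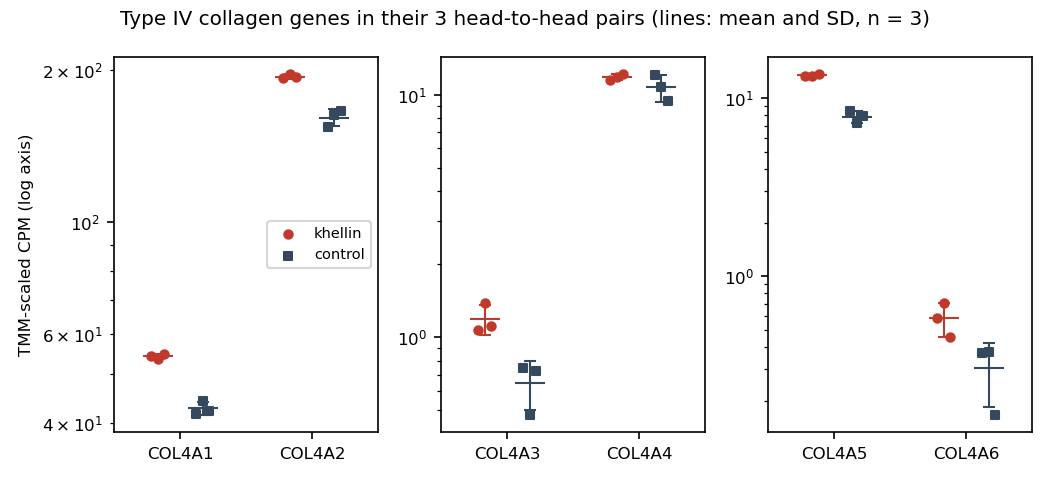
CPM on log axes, scaled separately in each panel, for the 6 type IV collagen genes in their head-to-head pairs, with khellin libraries as circles left of control libraries as squares, and the mean and SD (n = 3) as lines. The groups overlap for COL4A4 and for no other of the 6.

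The shared promoters of the pair that rose together and of the X-linked pair are given as RefSeq windows on GRCh38.p14. The COL4A2 window, chr13:110307034-110307333 on the plus strand, holds the starts of both genes, which lie 127 bases apart and point away from each other. Capitals run from the COL4A1 start to the COL4A2 start and include a CCAAT in the orientation of COL4A2. In the COL4A5 window, chrX:108439588-108439887 on the plus strand, capitals mark the 121 bases shared with the window of the nearer COL4A6 start, 380 bases away.
COL4A2: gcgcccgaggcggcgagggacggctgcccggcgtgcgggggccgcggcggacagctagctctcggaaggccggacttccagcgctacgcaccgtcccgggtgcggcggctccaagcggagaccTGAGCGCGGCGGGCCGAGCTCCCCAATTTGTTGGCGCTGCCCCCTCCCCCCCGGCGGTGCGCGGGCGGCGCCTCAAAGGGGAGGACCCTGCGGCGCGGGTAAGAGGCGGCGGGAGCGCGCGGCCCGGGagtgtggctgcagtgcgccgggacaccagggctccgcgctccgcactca
COL4A5: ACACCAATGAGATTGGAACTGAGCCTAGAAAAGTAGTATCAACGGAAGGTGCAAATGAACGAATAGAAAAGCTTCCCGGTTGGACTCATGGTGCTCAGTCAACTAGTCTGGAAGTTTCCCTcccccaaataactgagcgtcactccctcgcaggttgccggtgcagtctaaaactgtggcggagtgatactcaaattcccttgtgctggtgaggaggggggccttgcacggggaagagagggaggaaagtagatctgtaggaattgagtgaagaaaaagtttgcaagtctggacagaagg
For COL4A3 and COL4A4 on chromosome 2 the corresponding distance was 419 bases.

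Among the beaded filament chains 1 of 3 tested rose, where 10.6% of all tested genes were called higher. COL6A1 and COL6A2, neighbours on chromosome 21 whose chains join that of COL6A3 in type VI collagen, were both well expressed. COL6A1 had 64.3, 66.6 and 64.5 CPM with khellin and 48.8, 47.9 and 53.0 CPM in control (log2 fold change 0.39, SE 0.0569, edgeR adjusted p = 0.0017). COL6A2 had 77.7, 79.9 and 79.3 CPM with khellin and 68.6, 75.7 and 75.2 CPM in control, which did not overlap but did not pass (log2 fold change 0.11, SE 0.0535, edgeR adjusted p = 0.18). The count ratio of COL6A1 to COL6A2 was 0.825 ± 0.0108 with khellin and 0.683 ± 0.0432 in control (SD, n = 3 each). COL6A3 was scarce beside its partners, at 0.103 CPM per kilobase with khellin and 0.120 in control, where COL6A1 averaged 12.2 and 9.34. Its values of 2.14, 2.15 and 1.79 CPM with khellin and 2.50, 2.65 and 1.89 CPM in control overlapped (log2 fold change -0.21, SE 0.163, edgeR adjusted p = 0.41).

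Of the network and fibril-associated chains, COL8A1 and COL20A1 changed clearly. COL8A1, a short chain of the hexagonal lattice known from Descemet's membrane and vessel walls, had 64.6, 66.1 and 64.2 CPM with khellin and 46.1, 44.1 and 42.6 CPM in control (log2 fold change 0.55, SE 0.0537, edgeR adjusted p = 0.00017). COL20A1, a little studied FACIT chain, had 0.9998, 0.807 and 0.781 CPM with khellin and 2.26, 1.63 and 2.02 CPM in control. It fell to 29, 24 and 24 reads in khellin libraries, against 67, 48 and 61 in control, a log2 fold change of -1.19 (SE 0.189, edgeR adjusted p = 0.0025). COL12A1, a component of fibril surfaces, had 133.4, 131.3 and 127.8 CPM with khellin and 131.4, 130.4 and 112.7 CPM in control (log2 fold change 0.07, SE 0.0621, edgeR adjusted p = 0.49). COL16A1, another FACIT chain, had 2.999, 2.05 and 2.31 CPM with khellin and 2.16, 1.903 and 2.05 CPM in control, with overlap (log2 fold change 0.26, SE 0.163, edgeR adjusted p = 0.30). COL9A2, a chain of cartilage type IX collagen, had 2.21, 2.25 and 2.38 CPM with khellin and 2.16, 2.38 and 2.15 CPM in control, a log2 fold change of 0.03 (SE 0.122, edgeR adjusted p = 0.90).

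The multiplexins, basement membrane collagens that carry the endostatin domain, were COL15A1 and COL18A1. COL15A1 had 31, 29 and 37 reads with khellin and 21, 21 and 18 in control, which is 1.07, 0.975 and 1.20 against 0.709, 0.714 and 0.596 CPM (log2 fold change 0.69, SE 0.194, edgeR adjusted p = 0.035). That call was lost in DESeq2 (adjusted p = 0.196), with no filter on low counts (edgeR adjusted p = 0.0552) and when any 1 library was left out, control replicate 1 (0.0515), 2 (0.0790) or 3 (0.0888) and khellin replicate 1 (0.0961), 2 (0.0580) or 3 (0.135). COL18A1 had 48.8, 51.6 and 52.3 CPM with khellin and 42.4, 45.7 and 52.7 CPM in control, a log2 fold change of 0.12 (SE 0.0807, edgeR adjusted p = 0.35). Control replicate 3 was the highest of the 6, and without it COL18A1 passed at 0.21 (edgeR adjusted p = 0.0324). Other fits lowered the value, to 0.0476 without control replicate 1 and 0.0124 with the length and GC correction (edgeR adjusted p = 0.895 for the latter). Of the COL18A1 exon bases 16.4% overlap SLC19A1 on the opposite strand, which had 26 to 36 reads with khellin and 25 to 27 in control.

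**Figure D4:**
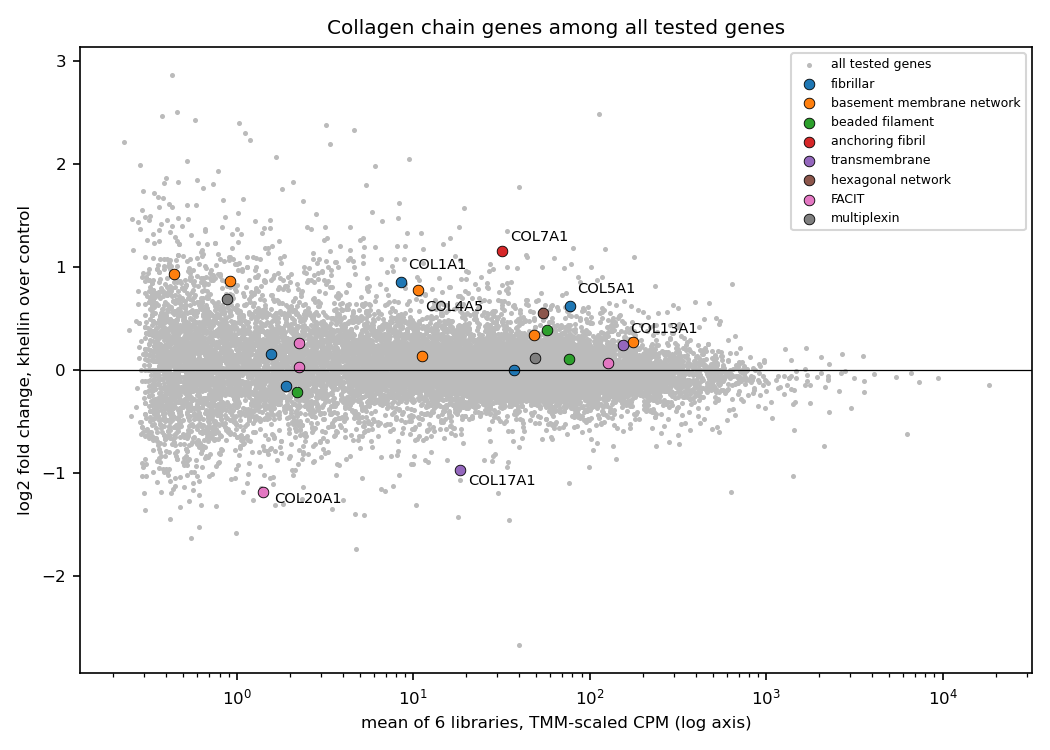
Mean TMM-scaled CPM of the 6 libraries on a log axis against the log2 fold change, khellin over control, for all 15865 tested genes in grey and the 24 tested collagen chains coloured by class. COL7A1 lies at 1.16 and COL17A1 at -0.97, and COL13A1 at 0.24.

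Set on the per-kilobase scale, the order of the chains was led by COL13A1, with 28.4 ± 0.304 CPM per kilobase in khellin and 24.0 ± 2.10 in control libraries (SD, n = 3 each). COL6A2, COL6A1, COL12A1, COL4A2, COL5A1, COL8A1 and COL18A1 followed with khellin, from 14.7 down to 5.97. In control the same 8 genes led, with COL12A1 at 10.0 ± 0.843 and COL6A1 at 9.34 ± 0.506 overlapping, and COL18A1 at 5.50 ± 0.619 and COL5A1 at 5.43 ± 0.138 likewise. COL1A1 ranked 15 of 42 in both groups, at 1.12 ± 0.0310 with khellin and 0.619 ± 0.0328 in control. These ranks depend on the annotated exon lengths.

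Genes that handle collagens were counted over 8 lists drawn up with earlier results known. Of 79 tested, 13 rose and 6 fell (24.1%, against 19.4% of all tested genes), with a median log2 fold change of 0.05. By direction these were 16.5% higher and 7.59% lower, against 10.6% and 8.82% of all tested genes. The lists are small, and none was tested as a set. Of 18 enzymes and chaperones that modify and fold the chains 1 was called and 7 had no overlap between groups, against 38.2% of all tested genes. The called gene was COLGALT1, a collagen galactosyltransferase, with a log2 fold change of -0.17 (SE 0.0444, edgeR adjusted p = 0.025), a call that ended with library size alone and when control replicate 2 or any 1 khellin replicate was left out (adjusted p of at most 0.129). The lysyl hydroxylase gene PLOD3 stood at -0.16 (SE 0.0493, edgeR adjusted p = 0.052) and COLGALT2 at 0.22 (SE 0.0722, edgeR adjusted p = 0.058). Larger values that did not pass were those of the lysyl hydroxylase gene PLOD2 at -0.34 (SE 0.110, edgeR adjusted p = 0.060) and the prolyl hydroxylase gene P4HA3 at 0.53 (SE 0.272, edgeR adjusted p = 0.21). Of 15 genes of procollagen export 1 rose, SEC24D, a COPII coat gene, by 0.26 (SE 0.0498, edgeR adjusted p = 0.0066), while the cargo receptor gene MIA2 stood at 0.13 and SAR1A, a COPII GTPase gene, at 0.10 (edgeR adjusted p = 0.20 and 0.17).

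Processing and cross-linking genes gave 3 higher and 1 lower of 13, where 10.6% of all tested genes were called higher and 8.82% lower. LOX, the lysyl oxidase that cross-links fibrils, averaged 74.3 ± 4.39 CPM with khellin and 58.6 ± 5.71 CPM in control (SD, n = 3 each), a log2 fold change of 0.34 (edgeR adjusted p = 0.013), which no longer passed once control replicate 2 or khellin replicate 1 or 3 was left out (adjusted p of at most 0.0683). PCOLCE2, an enhancer of C-propeptide removal, fell by 0.53 (SE 0.0932, edgeR adjusted p = 0.0044). TLL2, a propeptidase gene with 13 to 27 reads, stood at 0.77 (SE 0.221, edgeR adjusted p = 0.038) and lost its call with no filter, in DESeq2 and in the fits without control replicate 1 or 3 and without any 1 khellin replicate (adjusted p of at most 0.203). Among 9 tested collagen receptors 3 rose. ITGA10, an integrin chain known from cartilage, averaged 12.5 ± 0.966 CPM with khellin and 4.06 ± 0.240 CPM in control (SD, n = 3 each; log2 fold change 1.62, SE 0.0937, edgeR adjusted p = 1.1e-05). The collagen-activated kinase gene DDR1 rose by 0.50 (SE 0.0655, edgeR adjusted p = 0.00089) and ITGA1 by 0.36 (SE 0.0917, edgeR adjusted p = 0.023). ITGA1 no longer passed once control replicate 2 or khellin replicate 1 or 3 was left out (adjusted p of at most 0.104).

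FN1, the fibronectin on which collagen fibrils assemble, was the member called among 3 tested fibril-associated genes. Over all tested genes 10.6% were called higher, the share to set beside this list and the next. FN1 averaged 360.6 ± 7.996 CPM with khellin and 233.1 ± 19.1 CPM in control (log2 fold change 0.63, SE 0.0596, edgeR adjusted p = 0.00015). SPARC and TNXB stood at -0.07 and -0.05. Of 5 basement membrane partners HSPG2, the perlecan gene, and FRAS1 rose by 0.26 each (edgeR adjusted p = 0.033 and 0.021). Both calls ended when any 1 khellin replicate was left out, that of FRAS1 also without control replicate 2 and that of HSPG2 with the length and GC correction (adjusted p of at most 0.117). FREM2 stood at 0.34 (edgeR adjusted p = 0.13).

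The neighbours of type XVII and type VII collagen in the epithelial junction moved both ways, with 2 higher and 2 lower of 8. Of all tested genes 10.6% were called higher and 8.82% lower. LAMA3 and ITGB4, the laminin-332 alpha chain and the hemidesmosomal integrin, rose by 0.52 (SE 0.0506, edgeR adjusted p = 0.00018) and 0.54 (SE 0.0713, edgeR adjusted p = 0.00096). LAMB3, the laminin-332 beta chain, fell by 0.19 (SE 0.0461, edgeR adjusted p = 0.017). Of 8 genes of breakdown and shedding, the interstitial collagenase MMP1 fell to 215 ± 6.42 CPM with khellin, against 313.4 ± 2.38 CPM in control (log2 fold change -0.54, SE 0.0409, edgeR adjusted p = 3.6e-05). PEPD, a dipeptidase that recycles proline, fell by 0.44 (SE 0.0516, edgeR adjusted p = 0.00047), and CTSK, a lysosomal collagenase, rose by 0.50 (SE 0.0916, edgeR adjusted p = 0.0050).

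**Figure D5:**
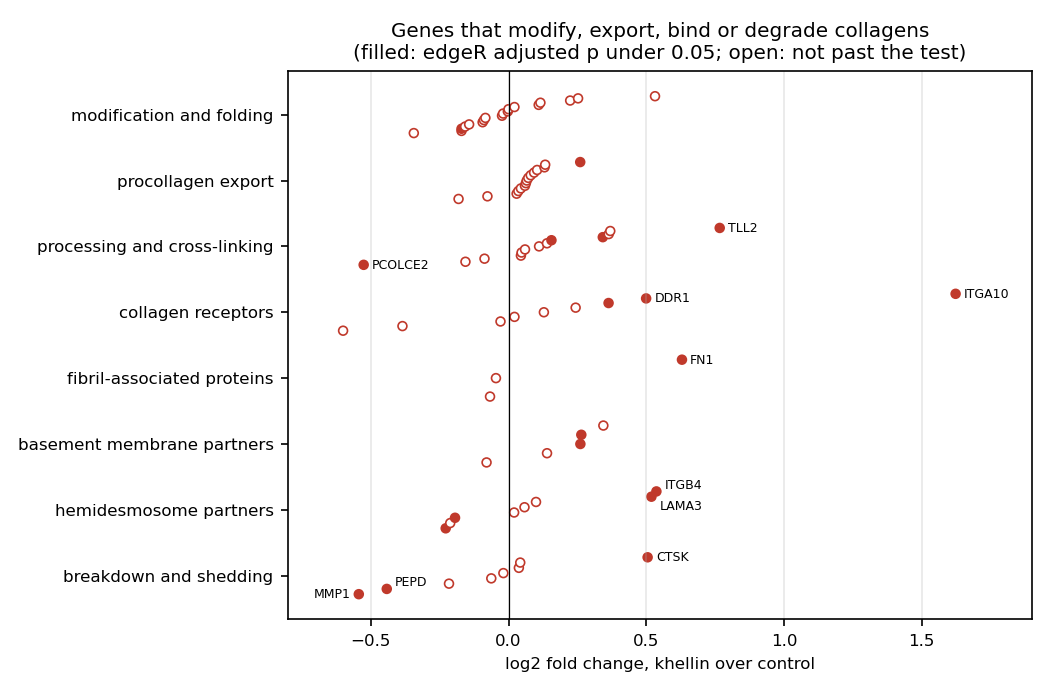
Log2 fold changes, khellin over control, of 79 tested genes that modify, export, cross-link, bind or degrade collagens, 1 point per gene in rows by list. Filled points passed edgeR's quasi-likelihood test, ITGA10 at 1.62 lies farthest right, and 1 point of the modification and folding row is filled.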

How the data were processed

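Polyadenylated RNA of 3 khellin and 3 control samples of MDA-MB-231 was sequenced, and samples were grouped by their titles. The authors deposited raw read counts per gene. Per the submitters' processing notes they used fastp, HISAT2 and HTSeq, with versions, strand setting, build and annotation not given in the sources used here. Coordinates overlapped GENCODE release 29 on GRCh38 for 25358 of 25378 shared gene identifiers, so that build was inferred.

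Genes were kept with filterByExpr (15865), TMM-scaled, and fitted by edgeR quasi-likelihood (robust F test, group only, two-sided, Benjamini-Hochberg over all tested genes, adjusted p under 0.05). The SE is the absolute log2 fold change divided by the root of F. The biological coefficient of variation was 6.95%. CPM per kilobase used the union of GENCODE exons. Chi-square per degree of freedom between libraries ran from 1.91 to 5.4 within khellin and from 7.1 to 20.8 within control, so none was a copy. Floors of 3 counts cover counting error only. Promoter windows came from RefSeq (GRCh38.p14) for 30 of 42 members.

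The members, classes, lists and naming rule were chosen with earlier results of these data known. Described in full were chains with a mean of at least 1 CPM and called chains, and, of each partner list, the 3 smallest p-values and any called change of 1.5-fold. COL4A6, LAMB3, PLOD2, P4HA3, single marker genes and scarce chains named by their reads were added after their values were seen. Of the hemidesmosome list, 1 gene that this rule names is not reported here. Each library was left out in turn. Also tried were limma-voom and DESeq2, no filter or 1 CPM in 3 libraries, upper quartile or RLE factors or bare library size, stricter thresholds, a block for replicate number, and a length and GC correction (96.4% of tested genes had both values). A ratio of COL1A1 to COL1A2 was planned and left out because COL1A2 had no reads in some libraries. The edgeR fit was tested on simulated data. Versions were edgeR 4.0.16, DESeq2 1.42.0, limma 3.58.1 and mgcv 1.9.3 in R 4.3.3, with SciPy 1.17.1 under Python 3.11.15.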

Additional observations from a re-analysis of the deposited data

How the results depend on the processing

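Of 13 called collagen chains, 10 kept the call in each of the 15 alternative fits, the exceptions being COL13A1, COL15A1 and COL4A3. The count of called chains lay between 10 and 13 in those fits, from 10 to 13 with 1 library left out. Requiring 1.5-fold left 8 chains, 6 of them higher. Chains that changed sign were all uncalled. COL12A1 stood at -0.00226 without control replicate 3 and ranged to 0.105 over the libraries left out. COL27A1 stood at -0.0108 with RLE factors, -0.00261 with no filter, -0.0137 with DESeq2, -0.108 with the length and GC correction, -0.0167 without control replicate 1 and -0.0498 without khellin replicate 2, and at most 0.0449 with a library left out. COL9A2 stood at -0.0298 with the length and GC correction and -0.000384 without khellin replicate 3, ranging to 0.0791 without control replicate 2. Over all genes the calls were 5223 with the length and GC correction (3079 lower), 1416 at an adjusted p under 0.01 (808 higher, 608 lower) and 678 at 1.5-fold (462 and 216). With 1 library left out they ranged from 1562 to 3712 (919 to 1990 higher, 643 to 1722 lower), over 1.5 times fewer without control replicate 2 or any khellin replicate. Partner genes gave 34 calls with the length and GC correction (19 lower), 11 at an adjusted p under 0.01 (7 higher) and 3 at 1.5-fold, all higher and 0 lower (edgeR), and 11 to 24 with 1 library left out (7 to 15 higher), 11 without khellin replicate 1 or 3. Same-numbered libraries had correlations of deviations of 0.136, 0.034 and -0.119, where unlike-numbered ones ran from -0.248 to 0.214. With 3 libraries a group these values cannot decide whether the libraries were paired. A replicate block gave 2815 calls over all genes, 12 collagen chains, without COL15A1 (adjusted p = 0.0662), and 18 partner genes, without TLL2, which was also not tested with the filter of 1 CPM. The differences in chain ratios moved by less than 1 SD with any library left out. Of uncalled chains that kept their sign, values with 1 library left out ranged from -0.300 to -0.0229 for COL5A2, 0.0981 to 0.379 for COL16A1, 0.0480 to 0.233 for COL4A4, 0.0615 to 0.220 for COL11A2, -0.348 to -0.115 for COL6A3, 0.0476 to 0.207 for COL18A1, 0.0648 to 0.134 for COL6A2 and 0.634 to 1.11 for COL4A6. The 18 chains below the count filter have no test at this depth.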

Other observations

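Among the 18 collagen chains too scarce to test, 4 had no overlap between groups in scaled values. The share of 38.2% of all tested genes is for genes that passed the count filter and gives no measure for counts this low. COL3A1 had 2, 2 and 3 reads with khellin and 1, 0 and 1 in control, and COL9A3 had 7, 9 and 10 with khellin and 6, 5 and 5 in control. COL9A3 shares 45 exon bases with TCFL5 on the opposite strand, which had 1848 to 2036 reads a library, and with the strand setting unknown reads in those bases cannot be told apart. COL6A5 had 1, 1 and 2 reads with khellin and 0, 0 and 1 in control, so its groups met at 1 read and only the scaling parted them. COL11A1 had 1, 4 and 1 reads with khellin and 6, 5 and 6 in control. No test was run on these counts. The antisense RNA genes named for COL18A1, COL4A2 and COL5A1 had at most 5 reads in a library, and COL6A4P1, a pseudogene of type VI collagen, had 1 read over the 6 libraries together.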
